A study of Mus musculus with 20 samples.

Results

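The core machinery of autophagy was followed in mouse liver as 39 genes, taken by symbol from the 20914 genes of the deposited count table. They are the genes whose symbol starts with Atg, Ulk or Wipi and a digit, with Map1lc3 or with Gabarap, together with Becn1, Pik3c3, Pik3r4, Sqstm1, Nbr1, Optn, Rb1cc1, Tfeb, Tfe3 and Uvrag. Of these, 37 passed the filter on low counts and were tested, while Atg9b and Ulk4 did not and are given by level only. Total RNA of the left lateral lobe was sequenced from 20 male mice, all of strain LiB12cKO and aged 8 weeks. The knockout (KO) genotype was HSD17B12lox/lox;Alb-CreCre/WT in 10 mice, and the wild-type (WT) genotype was HSD17B12lox/lox;Alb-CreWT/WT in 10 mice. Both groups thus carried floxed Hsd17b12, the gene of a 3-ketoacyl-CoA reductase that elongates very-long-chain fatty acids, and no treatment is named. The albumin promoter restricts Cre recombinase to hepatocytes and their precursors, so liver cells that do not arise from these keep the gene. Only KO mice carried Cre, and its own effects and those of the deletion cannot be told apart.

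Autophagy carries cytoplasm, organelles and lipid droplets to the lysosome inside a double membrane, the autophagosome. The ULK kinase complex starts the process, a class III phosphatidylinositol 3-kinase marks the membrane with its lipid product PI3P, and ATG9, ATG2 and WIPI proteins supply and shape it. A conjugation system then couples LC3 and GABARAP proteins to the membrane lipid, where cargo receptors such as p62, the product of Sqstm1, bind them. In hepatocytes autophagy is known for the supply of nutrients in fasting and for the turnover of lipid droplets. RNA levels do not measure the flux through the pathway.

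The libraries held 16693195 to 24895938 assigned fragments in KO and 19676907 to 29124124 in WT. Hsd17b12, the deleted gene, had 152 ± 18.5 CPM (counts scaled to the size of the library) in WT mice and 47.8 ± 2.39 CPM in KO mice (SD, n = 10 for both), with no overlap. The library sizes were adjusted by TMM factors, which correct for differences in library composition. These factors were 1.05 to 1.24 in KO and 0.787 to 0.974 in WT. With library size alone as the scaling, the median over all 13670 tested genes of the log2 fold change moved from -0.025 to 0.44, so the calls of modest differences depend on the scaling. Mouse KO_391 stood apart, with 8.46% multi-mapping fragments against 2.09% to 4.02% in the other KO mice and 3.38% to 14.1% in WT. Its Hsd17b12 level of 50.6 CPM was within the KO range of 44.2 to 51.3 CPM.

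With TMM factors most autophagy genes differed little between the genotypes, and 3 stood out by a rise. Sqstm1, Atg16l2 and Tfe3 were higher in KO with log2 fold changes of 1.18, 1.32 and 0.61, and Atg101, a subunit of the ULK complex, fell by 0.65 on the log2 scale. These 4 genes were the only called members with an absolute log2 fold change of at least 0.58 with TMM factors, where 25.8% of all tested genes had both. All 4 kept their direction and their call with library size alone, though Atg101 shrank to -0.18. Atg12, Map1lc3a, Atg2a, Ulk3 and Wipi2 reached 0.58 only under that scaling, at 0.62 to 0.71, where the median of all genes was 0.44. Ulk1, called lower at -0.579 with TMM factors, lay just short of 0.58. By edgeR's quasi-likelihood test at an adjusted p under 0.05, 7 of 37 tested members were higher in KO, where 28.2% of all tested genes were. Another 17 were lower, where 31.0% of all tested genes were, and 13 did not pass the threshold. The 37 members had a median of -0.14, beside -0.025 for all tested genes. Under library size alone 28 members were higher, beside 68.4% of all genes, and 1 was lower, beside 6.71%. The distance of the members' median from that of all genes was -0.12 under both scalings. Without mouse KO_391 the counts were 8 higher and 17 lower, beside 30.3% and 29.3% of all genes, and without mouse WT_441 they were 6 and 17, beside 28.7% and 31.2%. The 7 higher members were Sqstm1, Tfe3, Atg16l2, Atg12, Atg2a, Map1lc3a and Wipi2, and all 7 were also called higher with library size alone.

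**Figure D1:**
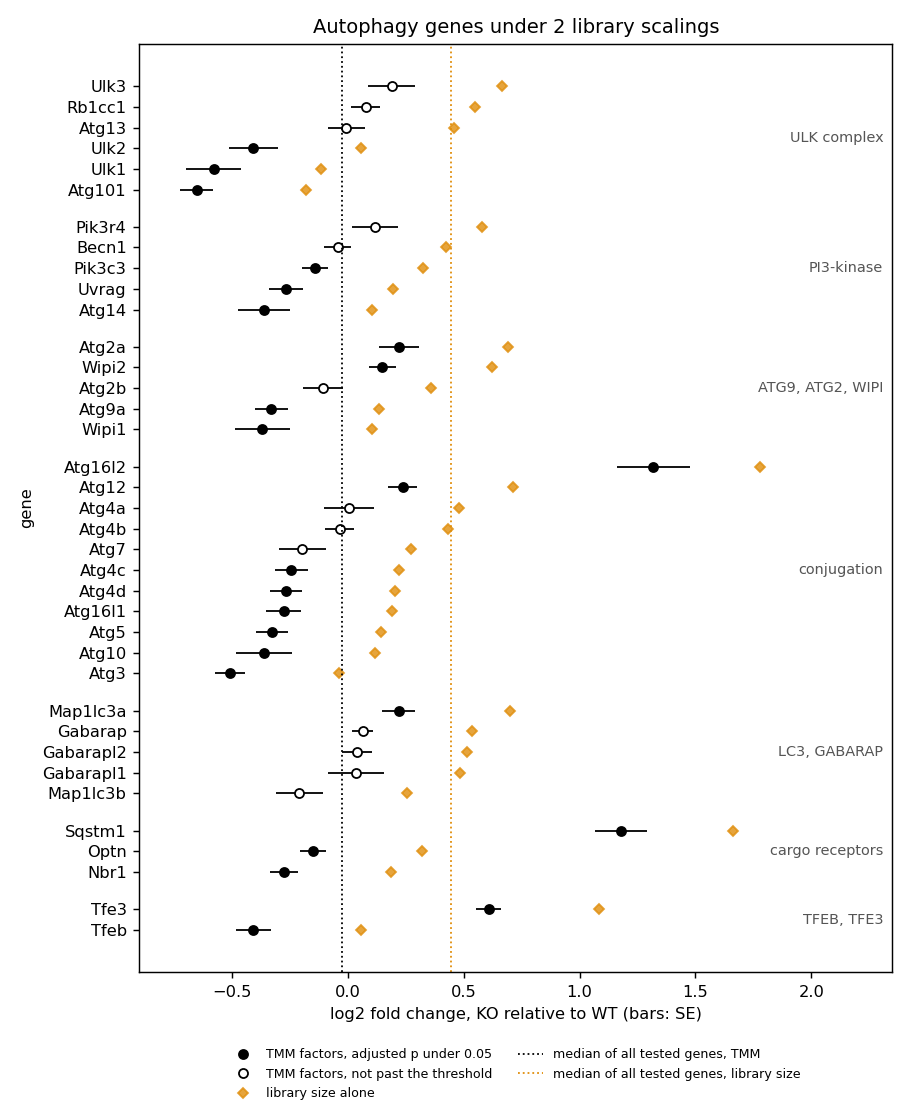
KO over WT log2 fold changes of the 37 tested autophagy genes, grouped by role. Circles are fits with TMM factors with SE bars (filled where adjusted p is under 0.05), diamonds are fits with library size alone, and dotted lines are the medians of all tested genes, at -0.025 and 0.44. Sqstm1, Atg16l2 and Tfe3 lie to the right of both lines, and Atg101 lies left of 0 under both scalings.

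Per length, Sqstm1 was the most abundant of the 39 genes in WT liver, at 237 ± 17.02 RPKM (SD, n = 10; the deposited level per kilobase of gene length). Gabarapl1 followed at 167.5 ± 32.1 RPKM and Map1lc3b at 79.1 ± 16.3 RPKM. Gabarap, Nbr1, Gabarapl2, Optn and Map1lc3a came next, at 51.9 ± 3.87, 45.7 ± 3.17, 43.1 ± 4.82, 41.3 ± 3.11 and 39.5 ± 5.04 RPKM. From Nbr1 to Map1lc3a, neighbours in that order did not differ beyond their SD. The receptors and the LC3 and GABARAP genes thus held the first 8 places, and the enzymes and kinases lay below them, from 32.6 RPKM for Atg3 to 2.67 RPKM for Pik3r4. Atg9b, a second ATG9 gene, was at 0.0504 RPKM in WT and 0.0828 RPKM in KO. Its exons overlap those of Nos3. Ulk4, a distant relative of the ULK kinases, was at 0.0226 and 0.0399 RPKM, and no direction is read from either gene.

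Promoter sequences are shown for 4 genes because the RNAs of TFEB and TFE3, which bind the E-box core CACGTG, moved apart here. Targets of NRF2, which binds the antioxidant response element core TGACNNNGC, were mostly higher. Windows of 250 bases before the annotated start were read from RefSeq promoters of build GRCm38.p6, which has the mm10 coordinates, and 33 of the 39 genes matched with 39 windows. Both strands were searched, no member window held both motifs, and matches are in capitals. The windows are Sqstm1 at chr11:50210821-50211070 (minus strand), Atg3 at chr16:45158579-45158828 (plus), Atg5 at chr10:44268089-44268338 (plus) and Ulk2 at chr11:61855093-61855342 (minus).
Sqstm1: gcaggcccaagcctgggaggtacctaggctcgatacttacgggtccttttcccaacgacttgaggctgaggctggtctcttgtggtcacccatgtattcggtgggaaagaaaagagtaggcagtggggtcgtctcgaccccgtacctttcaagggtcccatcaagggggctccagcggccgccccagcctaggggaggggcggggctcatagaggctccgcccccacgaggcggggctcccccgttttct
Atg3: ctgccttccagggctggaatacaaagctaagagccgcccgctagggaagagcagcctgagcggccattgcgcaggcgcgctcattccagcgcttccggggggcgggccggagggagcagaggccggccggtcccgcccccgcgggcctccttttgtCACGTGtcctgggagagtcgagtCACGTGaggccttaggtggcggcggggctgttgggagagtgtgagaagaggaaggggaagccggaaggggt
Atg5: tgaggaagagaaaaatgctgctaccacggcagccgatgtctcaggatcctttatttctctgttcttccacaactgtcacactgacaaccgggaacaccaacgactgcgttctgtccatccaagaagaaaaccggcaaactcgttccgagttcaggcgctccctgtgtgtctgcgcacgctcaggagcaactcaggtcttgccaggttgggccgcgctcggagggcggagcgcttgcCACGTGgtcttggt
Ulk2: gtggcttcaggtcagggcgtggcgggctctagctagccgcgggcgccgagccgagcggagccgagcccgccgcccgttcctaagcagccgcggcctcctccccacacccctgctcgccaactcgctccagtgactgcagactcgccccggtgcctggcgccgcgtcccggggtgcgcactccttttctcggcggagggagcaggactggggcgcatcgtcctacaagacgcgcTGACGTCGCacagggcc

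CACGTG was found in 3 of the 39 member windows and in 6.02% of all 32851 windows of that length. The 3 genes were Atg3, with matches starting 94 and 71 bases before the start, Atg5, with 1 match 14 bases before it, and Atg7, with 1 match. The Atg7 window, chr6:114670846-114671095 (plus strand), lies inside the gene, whose span begins at 114643097. Its match is 132 bases before an internal start and not before the first exon. TGACNNNGC was in 2 member windows, those of Ulk2 and Atg13, and in 10.2% of all. Neither motif was in the Sqstm1, Tfe3, Atg16l2 or Atg101 windows. The CLEAR element, a longer motif that contains the E-box core, was also searched. It was in 0 of the 39 member windows, those of Atg3, Atg5 and Atg7 included, and in 0.24% of all windows. At so low a share, its absence does not set the members apart from all windows. A match describes letters and not binding, and its absence from this window says nothing about the factor.

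Among the cargo receptors, Sqstm1 rose under both scalings, while Nbr1 and Optn were lower with TMM factors and higher with library size alone. Sqstm1 encodes p62, which carries ubiquitin-marked cargo to LC3 and also binds KEAP1, the inhibitor of NRF2 (Entrez gene 18412; mm10 chromosome 11, 50200152 to 50210790, 8 exon blocks). Its level was 420.5 CPM in the lowest, 475 in the median and 543 in the highest WT mouse. In KO the lowest, median and highest mice were at 686, 1082 and 1411 CPM. The genotypes did not overlap, KO_391 was the lowest KO mouse, and the KO mice spread more widely, with a coefficient of variation of 23.3% against 7.04% in WT. The log2 fold change was 1.18 (SE 0.11, edgeR adjusted p = 1.38e-08) and 1.66 with library size alone.

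Nbr1, a second ubiquitin-binding receptor, was at 170 to 240 CPM in KO, with a median of 191, and at 214 to 262 CPM in WT, with a median of 234. Of the 10 KO mice, 9 lay below every WT mouse. Optn, the gene of optineurin, a receptor in the clearance of mitochondria and bacteria, was at 81.5 to 110 CPM in KO (median 87.7) and 91.7 to 113 CPM in WT (median 100.5). Its groups overlapped, with 7 KO mice below every WT mouse. Nbr1 and Optn were lower with TMM factors, with log2 fold changes of -0.28 and -0.15 (edgeR adjusted p = 3.97e-04 and 0.0261), and higher with library size alone, at 0.19 and 0.32.

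The share of each receptor in the sum of all 3 does not depend on library scaling. Shares were taken from the RPKM of each mouse, for 18 genes of 9 families, and compared by two-sided permutation tests of 100000 resamples adjusted over the 18, of which 9 passed. Sqstm1 made up 73.1% ± 2.14 of receptor RPKM in WT and 87.1% ± 3.67 in KO (SD, n = 10 each; permutation adjusted p = 1.8e-04), higher in 10 of 10 KO mice than in any WT mouse. The lowest KO share was 78.8% and the highest WT share 76.7%. Nbr1 went from 14.2% ± 1.28 to 6.49% ± 1.94 (permutation adjusted p = 2.16e-04) and Optn from 12.8% ± 1.09 to 6.38% ± 1.75 (1.8e-04). In shares of raw counts, which weight genes by length, the Nbr1 difference was -14.2 percentage points in place of -7.66. The smallest raw p that these resamples can give is 2e-05. The receptor pool in KO was thus more strongly made of Sqstm1 RNA, and a share cannot tell a rise of Sqstm1 from a fall of the others.

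**Figure D2:**
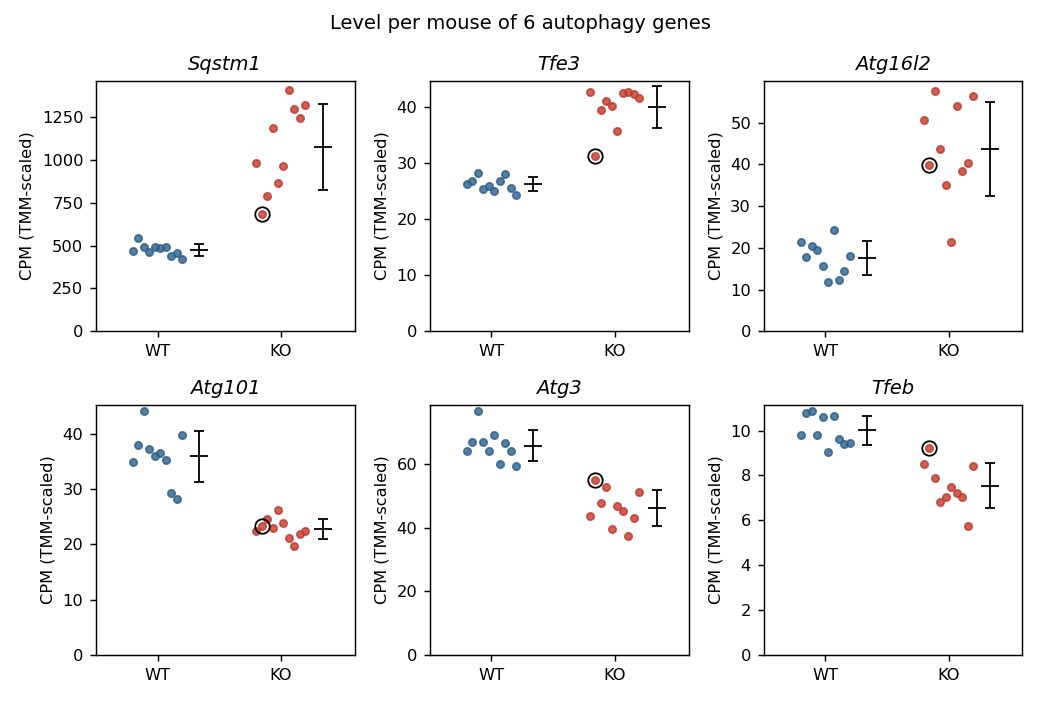
Level per mouse of 6 autophagy genes in CPM with TMM factors, for 10 WT (blue) and 10 KO (red) mice, with the mean and SD in black beside the points. The ring marks KO_391, which is the lowest KO mouse for Sqstm1 and Tfe3 and the highest for Atg3 and Tfeb.

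Both transcription factor genes were called, in opposite directions. TFEB and TFE3 are related factors that move to the nucleus when mTORC1 is inactive and switch on lysosome and autophagy genes. Tfe3 (mm10 chromosome X, 7762661 to 7775202, 10 exon blocks) was at 24.2, 26.1 and 28.2 CPM in the lowest, median and highest WT mice. The KO values were 31.3, 41.3 and 42.7 CPM, all above every WT value, with KO_391 the lowest. Its log2 fold change was 0.61 (SE 0.054, edgeR adjusted p = 4.98e-09) and 1.08 with library size alone. Tfeb (mm10 chromosome 17, 47737037 to 47792416) was at 9.06, 9.80 and 10.9 CPM in WT and at 5.73, 7.36 and 9.22 CPM in KO. Only KO_391 reached the WT range. Tfeb was lower with TMM factors at -0.41 (SE 0.076, edgeR adjusted p = 8.90e-05), and with library size alone the value was 0.058 and did not pass (adjusted p = 0.483). Of the RPKM of both genes, Tfeb held 30.6% ± 1.15 in WT and 18.1% ± 3.17 in KO (permutation adjusted p = 2.16e-04), lower in 10 of 10 KO mice than in any WT mouse.

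Among the ULK kinases and their complex 3 of 6 tested members were lower with TMM factors, beside 31.0% of all tested genes. Only the call of Atg101 was kept with library size alone. Atg101 stabilises ATG13, the adaptor of the kinase (mm10 chromosome 15, 101284301 to 101290934, 3 exon blocks). It was at 28.1, 36.2 and 44.0 CPM in the lowest, median and highest WT mice and at 19.6, 22.7 and 26.2 CPM in KO, without overlap. Its log2 fold change was -0.65 (SE 0.071, edgeR adjusted p = 8.07e-08), and -0.18 with library size alone (adjusted p = 0.0368). Ulk1, the main starting kinase (mm10 chromosome 5, 110784489 to 110810081), ranged from 74.2 to 137 CPM in KO (median 95.7) and from 115 to 196 CPM in WT (median 140), with 8 KO mice below every WT mouse. Its log2 fold change was -0.579 (SE 0.12, edgeR adjusted p = 2.72e-04), which became -0.11 with library size alone and did not pass. Ulk2, its close relative, had -0.41 with TMM factors and 0.055 with library size alone. Its KO values ran from 48.7 to 95.1 CPM around a median of 56.6, and KO_391 was the highest of them. Ulk3, Rb1cc1, which encodes the scaffold FIP200, and Atg13 did not pass with TMM factors, at 0.19, 0.078 and -0.006, and were called higher with library size alone, at 0.66, 0.55 and 0.46. Ulk1 made up 64.5% ± 4.26 of the RPKM of Ulk1 and Ulk2 in KO and 67.0% ± 3.39 in WT, a difference that did not pass (permutation adjusted p = 0.199).

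In the class III PI3-kinase complexes 3 of 5 members were lower with TMM factors, beside 31.0% of all tested genes, and all 3 were above 0 with library size alone. Atg14, the subunit of the autophagy complex, had -0.36 and 0.11 under these scalings, Uvrag, the subunit of the endosomal complex, had -0.27 and 0.20, and the catalytic subunit Pik3c3 had -0.14 and 0.32. The call of Pik3c3 also ended without KO_391 (log2 fold change -0.11, edgeR adjusted p = 0.107). Becn1, the gene of Beclin 1, and Pik3r4, the regulatory subunit, did not pass with TMM factors, at -0.044 (SE 0.059) and 0.12 (SE 0.10), and were called higher with library size alone, at 0.42 and 0.58. Becn1 ranged from 41.4 to 50.8 CPM in KO and from 37.6 to 55.2 CPM in WT, so every KO mouse lay inside the WT range.

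The genes of membrane supply were split. Atg2a, a lipid transfer protein, and Wipi2, a PI3P reader that recruits ATG16L1, were higher with TMM factors at 0.22 and 0.15, and at 0.69 and 0.62 with library size alone. Atg9a, the lipid scramblase of the seed vesicles, and Wipi1, a second PI3P reader, were lower with TMM factors at -0.33 and -0.37, and had 0.13 and 0.11 with library size alone. Without mouse WT_441 the call of Wipi2 ended (log2 fold change 0.13, edgeR adjusted p = 0.0520). Atg2b was at -0.11 (SE 0.087) and did not pass with TMM factors, and was called higher with library size alone, at 0.36. Wipi1 went from 34.8% ± 4.80 of the RPKM of both WIPI genes in WT to 27.3% ± 3.16 in KO (permutation adjusted p = 0.0024), with 9 of 10 KO mice below every WT mouse.

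The conjugation machinery held the largest rise of all members, in Atg16l2. Of its 11 tested members 6 were lower and 2 higher with TMM factors, beside 31.0% and 28.2% of all tested genes. None of the 6 was called lower with library size alone. ATG16L1 scaffolds the complex that places LC3 on the membrane, and Atg16l2 is a less studied relative of Atg16l1 (Atg16l2: mm10 chromosome 7, 101289616 to 101302088, 18 exon blocks). Atg16l2 was at 11.8, 17.9 and 24.3 CPM in the lowest, median and highest WT mice and at 21.5, 42.0 and 57.7 CPM in KO. KO_416 was inside the WT range and the other 9 KO mice were above it. The log2 fold change was 1.32 (SE 0.16, edgeR adjusted p = 5.10e-07) and 1.78 with library size alone. Atg16l1 ranged from 23.9 to 37.5 CPM in KO and 31.7 to 40.6 CPM in WT, with -0.28 with TMM factors and 0.19 with library size alone. In the RPKM of both genes Atg16l1 went from 58.0% ± 6.72 in WT to 32.0% ± 7.54 in KO (permutation adjusted p = 2.16e-04), so that Atg16l2 was the more abundant of the pair in the KO mean.

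Atg3, the enzyme that hands LC3 to its lipid, had no overlap between the genotypes with TMM factors, and KO was the lower group. It was at 37.3, 46.1 and 55.0 CPM in the lowest, median and highest KO mice and at 59.4, 65.5 and 76.7 CPM in WT. Its log2 fold change was -0.51 (SE 0.066, edgeR adjusted p = 9.50e-07), and -0.038 with library size alone, which did not pass (adjusted p = 0.545). Of the members, 2 had every KO mouse above every WT mouse (Sqstm1 and Tfe3), beside 7.1% of all tested genes, and 2 had every KO mouse below (Atg101 and Atg3), beside 6.47%. Atg12, the ubiquitin-like partner of ATG5, was higher at 0.24 (edgeR adjusted p = 0.00247), or 0.71 with library size alone, and its KO values of 29.3 to 37.1 CPM overlapped those of WT, 22.3 to 32.5 CPM. Atg5 was lower with TMM factors at -0.33 and had 0.14 with library size alone, while Atg7, the enzyme that activates both ubiquitin-like systems, did not pass at -0.20 and was called higher with library size alone, at 0.27. Atg10, which joins ATG12 to ATG5, was at -0.36 and 0.12. Of the LC3 proteases, Atg4c and Atg4d were lower with TMM factors, at -0.24 and -0.27, and higher with library size alone, at 0.22 and 0.20. Atg4a and Atg4b did not pass with TMM factors, at 0.0040 and -0.035, and were called higher with library size alone, at 0.48 and 0.43. Atg4b, the most active of these proteases, went from 32.5% ± 1.65 of their summed RPKM in WT to 35.1% ± 2.21 in KO (permutation adjusted p = 0.0243). The Atg4d share was 37.5% ± 2.56 in WT and 34.6% ± 2.53 in KO (permutation adjusted p = 0.0444), a call that ended without KO_391 (adjusted p = 0.0585) and without WT_441 (0.0628).

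Of the 5 LC3 and GABARAP genes 1 was called with TMM factors, as higher, beside 28.2% of all tested genes, and all 5 were called higher with library size alone, beside 68.4%. Gabarapl1, the most abundant of them, was at 216 to 432 CPM in KO (median 307) and 193 to 370 CPM in WT (median 303), with a log2 fold change of 0.036 (SE 0.12). Every KO mouse but KO_391 lay within the WT range. Map1lc3b, the gene of the usual marker LC3B, was at 91.6 to 139 CPM in KO (median 119) and 102.5 to 195.5 CPM in WT (median 126), with -0.21 (SE 0.10, edgeR adjusted p = 0.0779). Map1lc3a was the called gene, at 37.6 to 50.6 CPM in KO (median 45.2) and 29.9 to 45.8 CPM in WT (median 38.3), with 0.22 (SE 0.071, edgeR adjusted p = 0.0111) and 5 KO mice above every WT mouse. Gabarap ran from 58.1 to 66.0 CPM in KO (median 60.2) and from 53.3 to 65.8 CPM in WT (median 56.7), and Gabarapl2 from 37.8 to 48.3 CPM (median 43.1) and from 35.2 to 51.5 CPM (median 41.4). Their log2 fold changes were 0.065 (SE 0.045) and 0.039 (SE 0.064), and the 5 genes had values between 0.25 and 0.70 with library size alone.

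Within this family the makeup moved by a few percentage points. Gabarapl1 held 43.7% ± 4.88 of the summed RPKM in WT and 44.3% ± 4.57 in KO (permutation adjusted p = 0.824). Map1lc3b held 20.7% ± 2.55 in WT and 17.9% ± 2.23 in KO (permutation adjusted p = 0.0406), a call that ended without KO_391 (adjusted p = 0.0518). Map1lc3a held 10.5% ± 1.72 in WT and 12.1% ± 1.55 in KO, which did not pass (permutation adjusted p = 0.074). Gabarapl1 exons overlap those of 1700101I11Rik and of a gene without a symbol. Exons of Gabarap, Becn1, Atg4d, Atg7, Atg13 and Pik3r4 also overlap those of another gene. Multi-mapping fragments were counted, so values of genes with near-identical copies are uncertain.

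**Figure D3:**
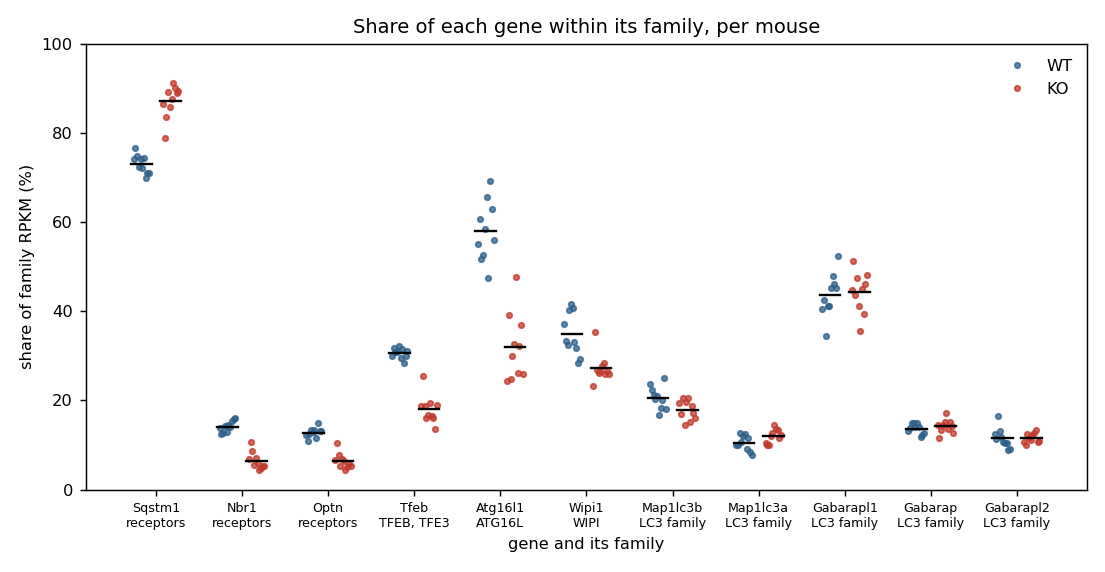
Shares of receptor, TFEB, ATG16L, WIPI and LC3 family genes in the summed RPKM of their family, in percent, for each WT (blue) and KO (red) mouse, with black lines at the group means. Sqstm1, Nbr1, Optn and Tfeb separate the genotypes in all mice, and the 5 LC3 and GABARAP genes on the right overlap.

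The KO mice differed in how many members lay outside the WT range. Of the 37 members, KO_391 had 3 below all WT mice and 9 above them, with 25 inside the WT range. The other 9 KO mice had 8 to 17 members below the WT range and 3 to 7 above it. The same counts were not made over all tested genes, so they are not read as particular to autophagy genes. Sqstm1 and Tfe3 were nearest to WT in KO_391, and without this mouse their log2 fold changes were 1.26 and 0.67 (edgeR adjusted p = 8.65e-10 and 9.70e-11).

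**Figure D4:**
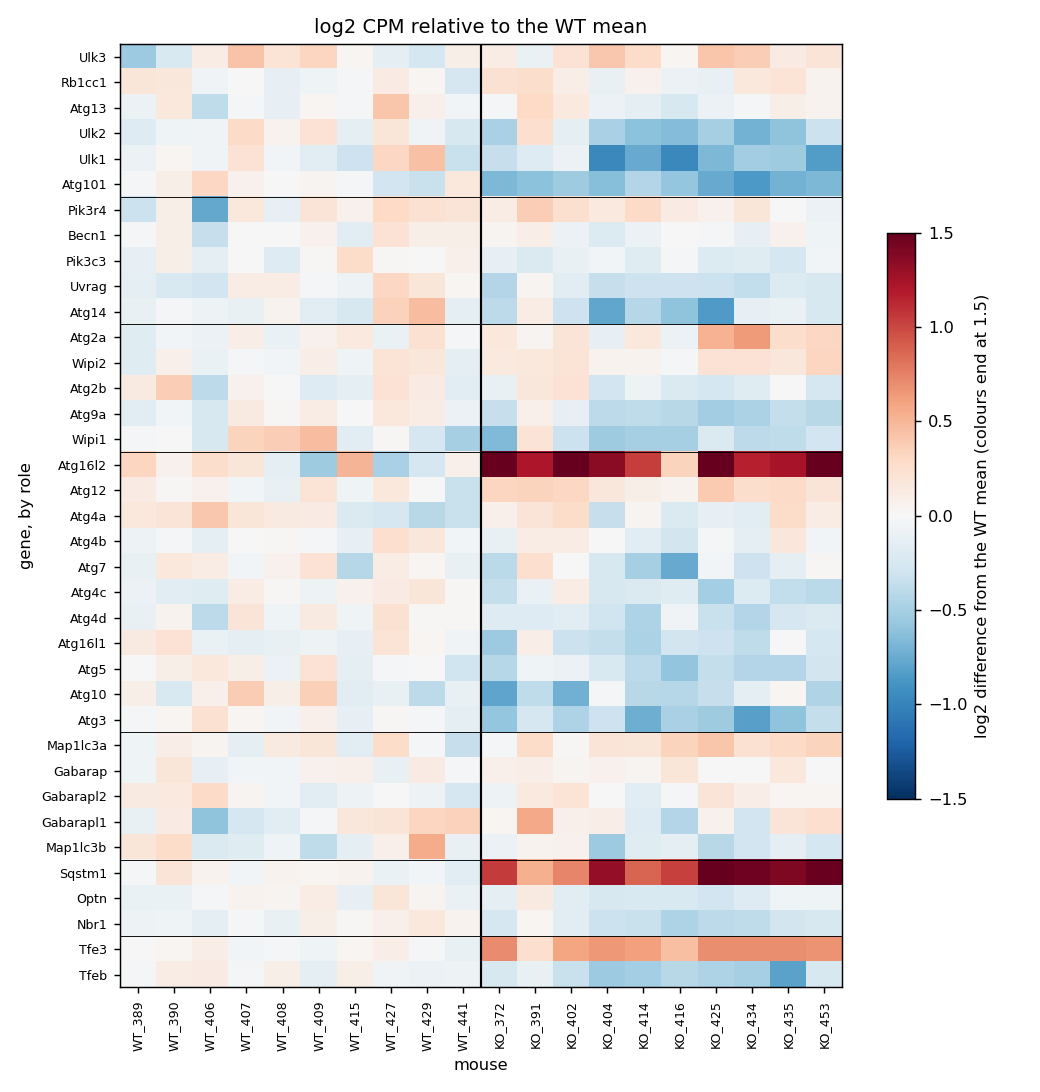
Log2 CPM (TMM factors) of the 37 tested autophagy genes in each mouse, as the difference from the WT mean, with WT mice left and KO mice right of the line and roles separated by thin lines. The rows of Sqstm1, Atg16l2 and Tfe3 are red in KO, most other rows are pale or blue, and KO_391 has fewer blue cells than the other KO mice.

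Of 37 members in the authors' deposited ROTS table, 3 were higher at an FDR under 0.05 (Sqstm1, Tfe3 and Atg16l2), where 22.1% of its genes were. Another 5 were lower (Atg101, Atg3, Ulk1, Ulk2 and Tfeb), where 18.9% were. All 8 had the same direction and were called by edgeR with TMM factors. The authors' deposited table gives log2 fold changes of 1.15 for Sqstm1, 1.26 for Atg16l2, 0.59 for Tfe3 and -0.62 for Atg101. Of 27 deposited gene ontology terms that name autophagy, phagophores, mitophagy or lysosomes, the lowest FDR in the authors' deposited tables was 0.446, for autophagosome maturation.

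Other autophagy genes stood outside the rule. Of 36 listed and tested, 12 were higher and 11 lower with TMM factors, shares near the 28.2% and 31.0% of all tested genes, with a median log2 fold change of 0.060. With library size alone 31 were higher, beside 68.4% of all genes. Sh3glb1, which encodes the Beclin 1 partner endophilin B1, rose by 0.60, Rtn3, a receptor for autophagy of the endoplasmic reticulum, by 0.35 and the PI3P reader Wdr45 by 0.35, and with library size alone by 1.07, 0.82 and 0.82. Sec62, another receptor of the endoplasmic reticulum, was at -0.36 with TMM factors and 0.11 with library size alone.

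The genes of the lysosome, where autophagosomes end, included many that were higher. Of 39 tested, 22 were higher and 4 lower with TMM factors, with a median of 0.23, beside 28.2% and 31.0% of all tested genes. With library size alone 37 were higher, beside 68.4% of all genes. The protease gene Ctsd had 274 ± 19.3 CPM in WT and 710 ± 141 CPM in KO (SD; log2 fold change 1.37, edgeR adjusted p = 1.74e-10). Cd63, a tetraspanin of late endosomes, rose from 3.01 ± 0.877 to 44.7 ± 17.9 CPM, and the proton pump subunits Atp6v0e and Atp6v1a rose by 0.71 and 0.89 on the log2 scale. The 15 macrophage and Kupffer cell markers moved in the same libraries. With TMM factors 13 were called higher, beside 28.2% of all tested genes, and with library size alone 14, beside 68.4%. None was at 0 in all mice, and their summed level was 430 to 771 CPM in KO against 197 to 398 CPM in WT. The 10 hepatocyte markers were all called lower with TMM factors, beside 31.0% of all tested genes. Their summed levels were 52817 to 67656 CPM in KO and 85508 to 121293 CPM in WT. With library size alone 6 of 10 were lower, beside 6.71%, and 1, Apob, was higher, beside 68.4%. Of 9 stellate cell and fibroblast markers 7 were higher with TMM factors, beside 28.2% of all tested genes. The count was also 7 with library size alone, beside 68.4%. Of 7 endothelial markers 2 were higher with TMM factors, near the share of all tested genes. All 7 were higher with library size alone, beside 68.4%. Cholangiocyte markers had 2 higher and 1 lower of 5 tested with TMM factors, beside 28.2% and 31.0% of all tested genes. Library size alone gave 3 higher, beside 68.4%. The summed lymphocyte and neutrophil markers were at 2.42 to 10.2 CPM in KO and 2.37 to 9.91 CPM in WT. The part of other cell types in the levels of Sqstm1, Atg16l2, Tfe3 and the lysosome genes was not tested, and in bulk RNA fewer cells of a type and less RNA per cell cannot be told apart.

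Among genes of mTORC1, AMPK and FOXO control, which set the rate of autophagy, 11 of 33 tested were higher and 6 lower with TMM factors, beside 28.2% and 31.0% of all tested genes. With library size alone 28 were higher, beside 68.4%. Without KO_391 the counts were 12 and 4, beside 30.3% and 29.3% of all tested genes. Sesn2, a leucine sensor of the mTORC1 pathway, had 5.13 ± 0.616 CPM in WT and 12.9 ± 1.63 CPM in KO (SD; log2 fold change 1.33, edgeR adjusted p = 3.31e-11). The genes of 2 Rag GTPases, which hold mTORC1 and the TFEB family at the lysosome, rose as well, Rragd by 2.60 and Rragc by 0.49, and with library size alone by 3.07 and 0.95. Stk11, the gene of the AMPK kinase LKB1, was at -0.42 with TMM factors and 0.054 with library size alone.

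Targets and partners of NRF2, the pathway that p62 acts on, were mostly higher: 14 of 17 tested were higher and 1 lower with TMM factors, beside 28.2% and 31.0% of all tested genes, with a median log2 fold change of 0.79, and 16 were higher with library size alone, beside 68.4%. Srxn1, a sulfiredoxin, had 31.4 ± 3.92 CPM in WT and 231 ± 67.9 CPM in KO (SD). Gsr, glutathione reductase, rose by 1.08 and Ugdh, which makes the sugar donor of glucuronidation, by 1.12 on the log2 scale. Gpx2, a glutathione peroxidase of epithelia, was at 0.0515 ± 0.0585 CPM in WT and 30.4 ± 12.7 CPM in KO. The summed level of the list was 2062 CPM in KO_391, the lowest of the KO mice, whose highest was 3247 CPM, and 1243 to 2034 CPM in WT.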

How the data were processed

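RNA was measured in 20 livers. Raw counts of fragments for each Entrez gene were deposited by the authors, with a normalized signal (each count over 1 factor per mouse) and RPKM (that signal per kilobase of gene length). These relations held with largest relative deviations of 4.98e-15 and 8.76e-15. The deposited file names give Rsubread, RefSeq mm10 and ROTS, while HISAT2 2.0.5 and DESeq2 stand in the submitters' processing notes. Whether counting used strand is not stated there. Per the file headers the ROTS table holds a log2 fold change, a p-value and an FDR per gene, and the gene ontology tables an FDR p-value and a number of annotated genes per term.

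KO and WT, 10 mice each, grouped by title, were compared with edgeR 4.0.16 in R 4.3.3 on the counts: filterByExpr (minimum count 10, total 15), TMM factors, robust quasi-likelihood fits and Benjamini-Hochberg adjustment over 13670 genes, at 0.05. The script was tested on simulated data, where 31 of 50 genes changed by 1.5-fold and 46 of 50 changed by 2-fold were called. Of 181 simulated calls 9 were false. That simulation changed far fewer genes than differed here and does not test the choice of scaling. SE is that of the log2 fold change. Shares within families used RPKM and SciPy 1.17.1. Alternatives were other scalings and filters, DESeq2 1.42.0, limma 3.58.1 on log2 RPKM with pseudocounts of 0.1 and 1, and leaving out KO_391 or WT_441. Counts of any 2 mice of a genotype differed beyond sampling noise (chi-square per degree of freedom 12.8 to 252 over 90 pairs). The members and lists were chosen with earlier results of these data known. Full values were given for members called with no overlap or an absolute log2 fold change of at least 0.58, and for all LC3, GABARAP and receptor genes, and at most 4 genes of each other list, those with the smallest adjusted p, were named. Values of Tfeb, Ulk1, Ulk2 and others beyond this rule were added after they were seen. In the fragment statistics 23 columns were not used here.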

Additional observations from a re-analysis of the deposited data

Results flagged for a closer look

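In groups of 10 mice a value was singled out when its gap to the nearest mouse took more of the group's range than Dixon's 95% limit allows. Of 110 groups looked at, some of which share genes, 7 met this, where chance gives about 5.5 (1 in 20). KO_391 accounted for 5. It was the highest KO mouse for Optn, at 110 CPM with the next at 95.6, for Ulk2, at 95.1 with the next at 71.7, and for Wipi1, at 25.8 with the next at 19.3. It also had the highest KO share of Wipi1 among the WIPI genes, 35.4% with the next at 28.3%, and of Tfeb among TFEB and TFE3, 25.4% with the next at 19.5%. All 5 values lay toward or past the WT mean. The share of Atg4d among the ATG4 proteases was highest of the KO mice in KO_416, at 40.6% with the next at 36.4%, and lowest of the WT mice in WT_406, at 31.6% with the next at 35.8%.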

How the results depend on the processing

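No paired analysis was possible because the mouse numbers of KO and WT in the labels do not overlap and name no litter. Library size alone was the alternative that moved the counts by over 1.5 times: all genes 9355 higher and 917 lower (3853 and 4233 with TMM factors), members 28 higher and 1 lower (7 and 17). The share of calls that were higher, over all genes, was 91.1% against 47.7%. Under it 20 members changed sign, to 0.12 for Atg10, 0.46 for Atg13, 0.11 for Atg14, 0.19 for Atg16l1, 0.36 for Atg2b, 0.43 for Atg4b, 0.22 for Atg4c, 0.20 for Atg4d, 0.14 for Atg5, 0.27 for Atg7, 0.13 for Atg9a, 0.42 for Becn1, 0.25 for Map1lc3b, 0.19 for Nbr1, 0.32 for Optn, 0.32 for Pik3c3, 0.058 for Tfeb, 0.055 for Ulk2, 0.20 for Uvrag and 0.11 for Wipi1. Atg13, near 0, also changed sign with DESeq2 size factors (0.0105), upper-quartile factors (0.0005), the stricter filter (CPM of 1 or more in 10 mice; 0.001), DESeq2 (0.0102) and limma on log2 RPKM with pseudocounts of 0.1 (0.0038) and 1 (0.003). With WT_441 or KO_391 left out, Atg4a ranged from -0.033 to 0.0088, Gabarapl1 from -0.0066 to 0.0736, the Gabarapl1 share from -0.17 to 1.57 percentage points and the Gabarapl2 share from -0.18 to 0.2658. Members called lower were 15 with no filter (Pik3c3 and Optn lost, adjusted p = 0.0678 and 0.0532) and 16 with DESeq2 size factors and DESeq2 (Pik3c3 lost, 0.0576 and 0.0543). Why the scaling moved the calls was not tested. The number of differing shares stayed within 1.5 times in all 3 alternatives, although the calls of Map1lc3b and Atg4d shares ended in shares of raw counts (adjusted p = 0.0563 and 0.0522). List counts under library size alone and without KO_391 were added after the data were seen. The genes of few counts, Atg9b and Ulk4, are limited by depth.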
